A study of Mus musculus with 16 samples.

Results

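The genes described here make fatty acids and build triglyceride from them. They were followed in mouse liver 12 h after a partial hepatectomy (PHx), in which part of the liver is cut away and the rest regrows, or after a sham operation. Of 32 genes named for these tasks, 29 had a probe set annotated with that gene alone, among 30142 genes named on the arrays. Where a gene had more than 1 such probe set, the brightest on average over the 16 arrays stood for it. Srebf1 and Scd2 lie only on probe sets annotated with more than 1 gene, and G6pdx was not found in the annotation used here, so these 3 are not reported. The measured genes fall into 9 of de novo synthesis and its supply of carbon and reducing power, 7 of desaturation and elongation, 10 of glycerolipid steps and 3 regulators.

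Total RNA was measured on 16 Affymetrix arrays, 4 in each of 4 groups. The mice were Ppara fl/fl, treated in the labels as wild type, or PparaΔHep (ΔHep below), in which the nuclear receptor PPARα is disrupted in hepatocytes. The disruption is limited to hepatocytes, so that Ppara RNA of other liver cells remains in the ΔHep samples. The Cre line, sex and age are not given in the labels. Each genotype was sampled after sham and after PHx, and per the labels this time was picked since steatosis sets in around it after PHx.

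De novo lipogenesis takes citrate out of the mitochondrion, splits it to acetyl-CoA, and joins acetyl units into palmitate with NADPH as the reductant. Elongases and desaturases then lengthen palmitate and dietary fatty acids and put double bonds in them, and acyltransferases load the products onto glycerol phosphate to give phosphatidate, diglyceride and triglyceride. In liver the pathway is driven by insulin and sugar through SREBP and ChREBP and by oxysterols through LXR, while PPARα is best known for switching on fat oxidation and also acts on desaturases and elongases.

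The 250 bases before the RefSeq start are printed for the 3 genes whose fall after PHx was among the clearest in both genotypes (Mlxipl, Slc25a1 and Acss2) and for Lpin2, which rose in fl/fl. The sequences are RefSeq's on GRCm38.p6, at chr5:135089640-135089889 on the plus strand for Mlxipl, chr16:17928220-17928469 on the minus strand for Slc25a1, chr2:155517793-155518042 on the plus strand for Acss2 and chr17:71183282-71183531 on the plus strand for Lpin2. Capitals mark the E-box CACGTG, the NF-Y box CCAAT and the GC box GGGCGG on either strand, and no marked match overlaps another.
Mlxipl: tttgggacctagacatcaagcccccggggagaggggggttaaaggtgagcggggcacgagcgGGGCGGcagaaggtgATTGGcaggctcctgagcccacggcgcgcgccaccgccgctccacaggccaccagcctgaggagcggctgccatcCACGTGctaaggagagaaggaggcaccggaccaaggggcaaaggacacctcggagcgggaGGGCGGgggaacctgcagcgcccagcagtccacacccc
Slc25a1: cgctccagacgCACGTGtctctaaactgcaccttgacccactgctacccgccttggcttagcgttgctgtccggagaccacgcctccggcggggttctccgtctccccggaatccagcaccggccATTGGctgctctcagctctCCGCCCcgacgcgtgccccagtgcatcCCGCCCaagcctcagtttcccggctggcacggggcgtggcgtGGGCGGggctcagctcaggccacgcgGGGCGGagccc
Acss2: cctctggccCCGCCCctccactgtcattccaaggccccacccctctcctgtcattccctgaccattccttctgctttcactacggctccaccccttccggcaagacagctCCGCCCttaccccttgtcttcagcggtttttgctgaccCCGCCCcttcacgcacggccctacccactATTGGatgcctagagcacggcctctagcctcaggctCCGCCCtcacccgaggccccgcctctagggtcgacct
Lpin2: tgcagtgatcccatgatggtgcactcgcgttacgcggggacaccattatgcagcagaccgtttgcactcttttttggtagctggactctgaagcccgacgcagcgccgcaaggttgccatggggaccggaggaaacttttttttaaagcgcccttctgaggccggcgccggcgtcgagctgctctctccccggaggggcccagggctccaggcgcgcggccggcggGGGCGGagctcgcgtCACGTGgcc

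The 3 genes that fell each hold a CCAAT and at least 1 GGGCGG. Mlxipl and Slc25a1 also hold a CACGTG, as does Lpin2, whose change had the opposite sign. Promoter windows were given for 26 of the 32 genes. The CACGTG word stood in the window of 5 of these 26 and of 6.86% of 27025 genes, CCAAT in 15 and 37.5%, and GGGCGG in 16 and 35.4%. The sterol regulatory element core TCACNCCAC was found for 1 of the 26, Mlxipl at another of its starts, and for 1.22% of all genes. The direct repeat of the receptor half-site to which PPARα binds, spaced by 1 base, was found for 0 of the 26 and for 0.0407% of all genes. A match is a description of these letters only, and binding was not measured.

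The values are log2 RMA values per probe set, and differences are log2 differences between group means ± standard error from limma's linear model over all 16 arrays. A gene is called at a Benjamini-Hochberg adjusted p below 0.05 over the 30142 genes. Whether every array is from its own mouse is not stated in the labels, and the p-values therefore reflect the array-to-array spread alone, which may be technical. Array medians ran from 2.02 to 2.08 after sham and from 2.14 to 2.22 after PHx, and correlations across genes from 0.986 to 0.997 within groups. The 8 hepatocyte markers averaged 10.19 to 10.40 on every array. The fat-cell marker Adipoq, whose cells also make these enzymes, lay between 1.01 and 1.38. The probe set of Ppara, which may lie outside the deleted stretch, was lower in ΔHep after PHx but was not called (-1.17 ± 0.33, adjusted p = 0.326). The PPARα target Cyp4a14 was lower in ΔHep over both operations (-4.32 ± 0.78, adjusted p = 0.0349). The PHx arrays fl/fl array 3 and ΔHep array 4 carried the lowest array weights in limma (0.499 and 0.596), and counts are given without them where they change.

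In fl/fl liver, 12 of the 29 genes fell after PHx and 1, Lpin2, rose. This is 44.8% of the genes called, against 32.7% of all genes and 43.7% of the genes with a mean of at least 5. Falls made up 41.4% of these genes, 20.8% of all genes and 37% of the genes with a mean of at least 5, and rises 11.9% and 6.67% of the latter 2 sets. Of the 29, 23 had a mean of at least 5, and of those 52.2% were called and 47.8% fell. The median difference of the 29 was -0.40, that of all genes -0.04 and that of genes with a mean of at least 5 -0.17. In ΔHep liver 19 fell and 0 rose, or 65.5%, where 17.5% of all genes and 40.3% of those with a mean of at least 5 fell (called in either direction, 32.3% and 45.7%; higher, 14.8% and 5.34%). The median was -0.70 there, against 0.01 for all genes and -0.21 for genes with a mean of at least 5. Of the 23 with such a mean among the 29, 78.3% fell in ΔHep. All 12 genes that fell in fl/fl also fell in ΔHep, where they are 12 of 19, while 12.1% of all genes and 28.5% of those with a mean of at least 5 fell in both. The PHx arrays all lay below the sham arrays for 9 of the 29 genes in fl/fl, against 19.9% of all genes and 34.8% of those with a mean of at least 5, and for 17 in ΔHep, against 16.2% and 35.4%. In bulk tissue, fewer cells of a type and less RNA per cell cannot be told apart.

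**Figure D1:**
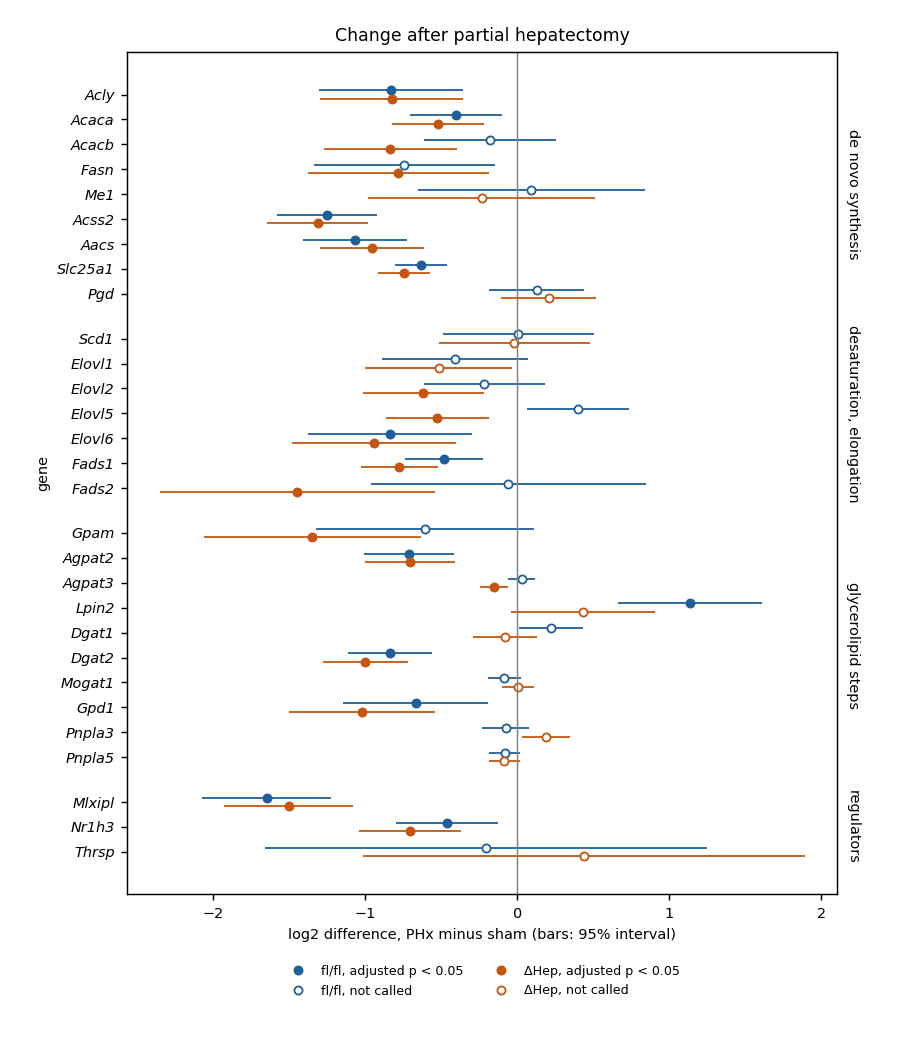
Log2 difference, PHx minus sham, of each of the 29 genes in fl/fl (blue) and ΔHep (orange), with the 95% interval from limma, ordered by role. Filled points passed adjusted p below 0.05. Mlxipl lies farthest to the left in fl/fl at -1.65, Lpin2 farthest to the right at 1.13, and Scd1 at 0.01 and -0.02.

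RNA of Acss2, Slc25a1, Aacs and Acly, genes of carbon supply to lipogenesis, fell in both genotypes. Acss2, which makes acetyl-CoA from acetate, read 4.98, 5.64, 5.28 and 5.43 on the sham fl/fl arrays and 3.96, 3.89, 4.06 and 4.41 after PHx. In ΔHep it read 5.65, 5.28, 5.80 and 5.53 after sham and 4.47, 4.31, 3.94 and 4.29 after PHx. Every PHx array lay below every sham array of its genotype, and the differences were -1.25 ± 0.16 (adjusted p = 2.90e-05) and -1.31 ± 0.16 (adjusted p = 1.60e-05), or 2.38-fold and 2.48-fold lower. Slc25a1, the carrier that brings citrate out of the mitochondrion, read 7.22, 7.36, 7.38 and 7.29 after sham and 6.73, 6.55, 6.75 and 6.68 after PHx in fl/fl. In ΔHep its values were 7.27, 7.27, 7.63 and 7.46, then 6.72, 6.78, 6.55 and 6.58. The groups were again apart in both genotypes, with differences of -0.63 ± 0.08 (adjusted p = 3.49e-05) and -0.75 ± 0.08 (adjusted p = 5.36e-06). Aacs, which activates the ketone body acetoacetate for lipid synthesis in the cytosol, fell by 1.07 in fl/fl and by 0.96 in ΔHep on the log2 scale, with no overlap between sham and PHx arrays in either. Acly, which splits cytosolic citrate to acetyl-CoA, fell by 0.83 in both (adjusted p = 0.0104 and 0.0105). Its PHx ΔHep arrays read 5.70, 6.18, 5.84 and 6.99, so that array 4 lay among the sham ΔHep values of 6.73 to 7.21, while in fl/fl the groups did not overlap.

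The synthetic steps Fasn, Acaca and Acacb overlapped between operations in fl/fl, where the genes of carbon supply did not. In ΔHep Fasn overlapped, as did Acly of the carbon supply, while Acaca and Acacb had every PHx array below sham. Fasn, the synthase that builds palmitate, read 7.66, 7.75, 7.03 and 7.45 after sham and 6.52, 6.92, 7.42 and 6.08 after PHx in fl/fl. The ΔHep arrays read 7.58, 7.46, 7.76 and 8.16 after sham and 6.35, 6.86, 7.16 and 7.47 after PHx. Sham and PHx arrays overlapped in both genotypes, through the highest PHx arrays, fl/fl array 3 and ΔHep array 4. The difference was -0.74 ± 0.28 in fl/fl (adjusted p = 0.0534, not called) and -0.78 ± 0.28 in ΔHep (adjusted p = 0.0437, called), and the PHx changes differed between the genotypes by -0.04, with a 95% interval from -0.88 to 0.80. Fasn was called in fl/fl without sham fl/fl array 3, PHx fl/fl array 3, or PHx ΔHep array 1 or 4 (adjusted p of 0.0148 to 0.0431). The ΔHep call was lost without sham fl/fl array 1 or 4, sham ΔHep array 1, 3 or 4, PHx fl/fl array 1 or 2, or PHx ΔHep array 1, 2 or 3 (adjusted p of 0.0503 to 0.130). Acaca, the cytosolic carboxylase that makes malonyl-CoA, fell by 0.40 in fl/fl (adjusted p = 0.0407) and by 0.52 in ΔHep (adjusted p = 0.0110). The fl/fl call was lost without sham array 1, 2 or 4 or PHx array 1, 3 or 4, with adjusted p of 0.0707 to 0.115. Acacb, the carboxylase at the mitochondrial surface whose malonyl-CoA restrains fat oxidation, fell by 0.83 in ΔHep (adjusted p = 0.00604). In fl/fl it lay at -0.18 ± 0.20 (adjusted p = 0.531). The difference between those changes was -0.65 ± 0.29 (adjusted p = 0.420). Set against fl/fl, Acacb in ΔHep lay at 0.51 ± 0.20 after sham (limma, adjusted p = 0.486) and at -0.14 ± 0.20 after PHx (adjusted p = 0.918). Every sham ΔHep array was above every sham fl/fl array, as for 2.38% of all genes. Of the NADPH suppliers, Me1 and Pgd were not called in either genotype, with differences between -0.23 and 0.21.

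Desaturation and elongation divided by enzyme. Scd1, the stearoyl-CoA desaturase, lay at 10.14 ± 0.20 after sham and 10.14 ± 0.41 after PHx in fl/fl and at 10.20 ± 0.17 and 10.18 ± 0.54 in ΔHep (SD, n = 4 arrays each). Its differences of 0.01 and -0.02 had 95% intervals from -0.49 to 0.50 and from -0.51 to 0.48. Changes within those bounds were not excluded. Fads1, a desaturase of polyunsaturated fatty acids, read 8.06, 8.34, 8.18 and 8.22 after sham and 7.83, 7.45, 7.58 and 8.03 after PHx in fl/fl. The ΔHep values were 8.29, 7.98, 8.34 and 8.27, then 7.61, 7.33, 7.29 and 7.56. The PHx arrays were below the sham arrays in both genotypes, and Fads1 fell by 0.48 (adjusted p = 0.00700) and by 0.77 (adjusted p = 2.05e-04). Elovl6, which extends palmitate, fell by 0.84 in fl/fl (adjusted p = 0.0198) and by 0.94 in ΔHep (adjusted p = 0.0103). The fl/fl call on Elovl6 was lost without sham array 1 (adjusted p = 0.0545) and without PHx array 3 (adjusted p = 0.0609).

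Fads2, Elovl2 and Elovl5 were called after PHx in ΔHep and not in fl/fl, which is no test of a difference between the genotypes. Fads2, the desaturase that opens the polyunsaturated route, read 7.84, 7.47, 8.01 and 7.93 after sham and 6.63, 6.46, 6.01 and 6.36 after PHx in ΔHep. In fl/fl it read 7.82, 8.06, 7.93 and 8.29 after sham and 8.82, 7.38, 6.47 and 9.19 after PHx. The ΔHep PHx arrays all lay low, while the fl/fl PHx arrays lay on both sides of sham, arrays 1 and 4 above and arrays 2 and 3 below. The PHx difference was -1.45 ± 0.42 in ΔHep (adjusted p = 0.0169) and -0.06 ± 0.42 in fl/fl (adjusted p = 0.930), and the test of the difference between them gave -1.39 ± 0.60 (adjusted p = 0.411). A second Fads2 probe set differed by -1.79 in ΔHep and -0.17 in fl/fl. Elovl5, an elongase of polyunsaturated fatty acids, read 8.19, 8.33, 8.32 and 8.78 after sham and 8.89, 8.72, 8.87 and 8.74 after PHx in fl/fl. In ΔHep the order was turned, with 8.71, 8.96, 8.80 and 8.75 after sham and 8.29, 7.76, 8.37 and 8.70 after PHx. Elovl5 fell by 0.52 in ΔHep (adjusted p = 0.0197; 0.0568 without sham ΔHep array 2) and lay at 0.40 ± 0.16 in fl/fl (adjusted p = 0.0649; 0.0210, 0.0187 and 0.0334 without sham fl/fl array 4 or PHx ΔHep array 2 or 4). The difference between the genotypes' PHx changes was -0.93 ± 0.22, with a 95% interval from -1.40 to -0.45 (limma, adjusted p = 0.325). Elovl2, which acts on longer polyunsaturated chains, fell by 0.62 in ΔHep (adjusted p = 0.0194; 0.0507 and 0.0590 without PHx ΔHep array 2 or 3). It lay at -0.22 ± 0.19 in fl/fl. Elovl1, an elongase of saturated very long chains, was not called in either genotype.

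Among the glycerolipid steps, Dgat2, Agpat2 and Gpd1 fell in both genotypes. Dgat2, which makes triglyceride from diglyceride, read 8.59, 8.86, 8.69 and 8.69 after sham and 8.08, 7.88, 7.52 and 7.98 after PHx in fl/fl. Its ΔHep values were 9.06, 8.85, 9.04 and 8.98, then 8.39, 7.88, 7.92 and 7.75. The groups did not overlap in either genotype, and Dgat2 fell by 0.84 (adjusted p = 2.41e-04) and by 1.00 (adjusted p = 4.30e-05). Dgat1, the other enzyme of that step, lay at 0.22 ± 0.10 in fl/fl and -0.08 ± 0.10 in ΔHep, called in neither, and it was called in fl/fl without PHx fl/fl array 1 (0.34, adjusted p = 0.00422). Agpat2, which adds the second acyl chain, fell by 0.71 and by 0.70 (adjusted p = 0.00146 and 0.00140). Gpd1, which makes glycerol phosphate from a sugar intermediate, fell by 0.67 in fl/fl (adjusted p = 0.0332) and by 1.02 in ΔHep (adjusted p = 0.00303). The fl/fl call on Gpd1 was lost without any single sham fl/fl array (adjusted p of 0.0508 to 0.0766) and without PHx array 2 or 3 (0.0972 and 0.104). Gpam, the mitochondrial acyltransferase that adds the first chain, read 7.0, 6.88, 7.10 and 6.95 after sham and 6.18, 6.11, 5.78 and 4.47 after PHx in ΔHep. All 4 PHx arrays lay below sham, with array 4 lowest, and Gpam fell by 1.35 (adjusted p = 0.00669). In fl/fl it lay at -0.61 ± 0.34 (adjusted p = 0.181), and the difference between the changes was -0.74 ± 0.47 (adjusted p = 0.586).

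Lpin2, a phosphatidate phosphatase that makes diglyceride, was the only one of the 29 genes called higher after PHx. It read 5.42, 5.82, 5.53 and 6.36 after sham and 6.88, 6.94, 6.94 and 6.90 after PHx in fl/fl. In ΔHep it read 5.96, 5.52, 6.17 and 5.93 after sham and 5.94, 6.23, 7.02 and 6.12 after PHx. The fl/fl PHx arrays lay close together and above every sham array, while in ΔHep array 3 alone reached that height. Lpin2 rose by 1.13 ± 0.22 in fl/fl, 2.19-fold (adjusted p = 0.00148), and lay at 0.43 ± 0.22 in ΔHep (adjusted p = 0.155). The test of the difference gave -0.70 ± 0.31 (adjusted p = 0.424). When the arrays were rescaled by cyclic loess or quantile normalization, limma called Lpin2 higher in ΔHep as well (0.64 and 0.66, adjusted p = 0.0391 and 0.0293). Mogat1, a monoacylglycerol acyltransferase, and Pnpla3 and Pnpla5, which belong to a family of lipid-droplet lipases and transacylases, lay at group means between 2.04 and 2.76 and were not called in either genotype. Without PHx fl/fl array 3 or 4 or PHx ΔHep array 3, Pnpla3 was called higher in ΔHep (adjusted p of 0.0450 to 0.0490). With cyclic loess, quantile normalization or array medians subtracted, limma called Pnpla5 lower in ΔHep (adjusted p of 0.00219 to 0.0224). The values of these 3 genes are close to the array medians, where changes are understated.

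**Figure D2:**
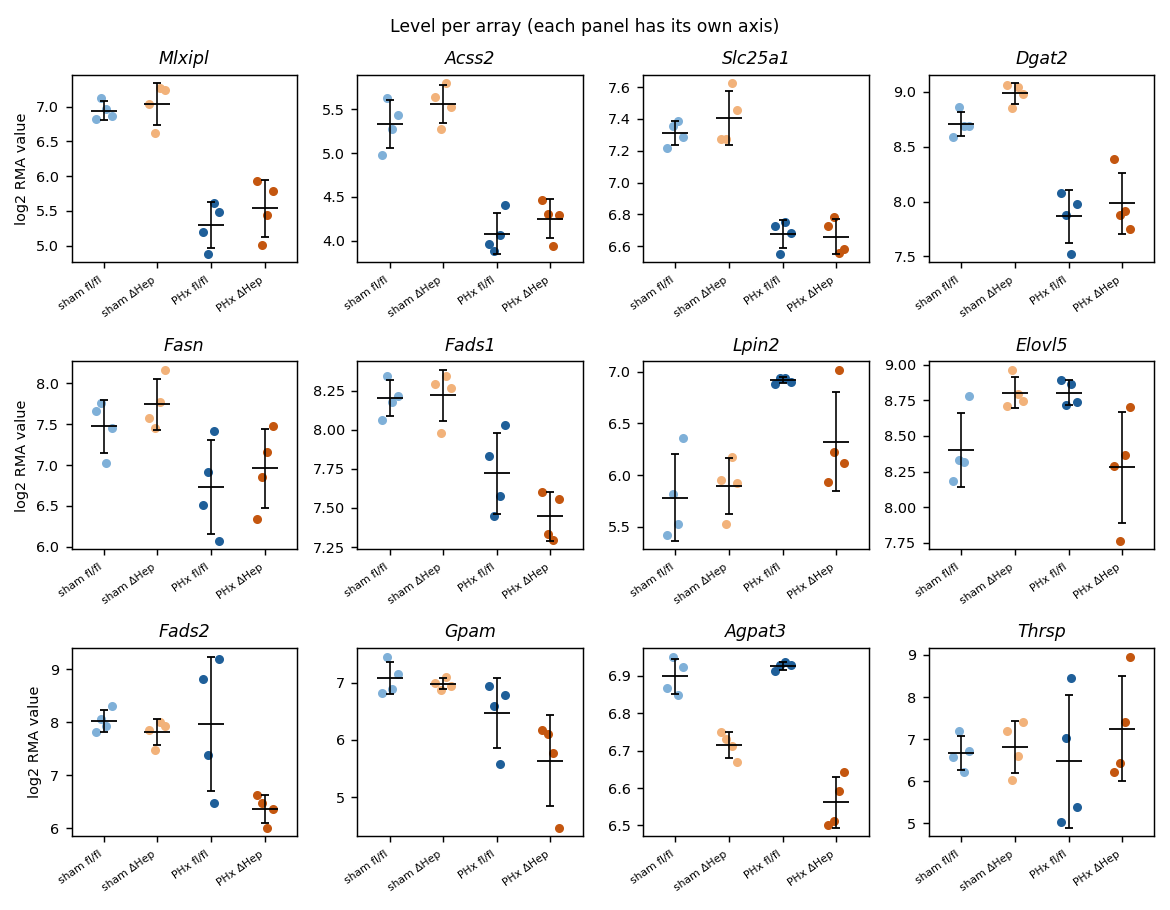
Log2 RMA value on each of the 16 arrays for 12 of the genes, in 4 groups of 4 arrays, with the group mean and SD as bars; each panel has its own axis. Mlxipl, Acss2, Slc25a1 and Dgat2 have PHx arrays wholly below sham arrays in both genotypes, and Fads2 and Thrsp spread widely among the PHx fl/fl arrays.

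Of the regulators, Mlxipl, which encodes the sugar-responsive factor ChREBP, read 6.83, 7.12, 6.97 and 6.86 after sham and 5.20, 4.88, 5.62 and 5.49 after PHx in fl/fl. In ΔHep it read 7.03, 6.62, 7.27 and 7.23, then 5.92, 5.0, 5.45 and 5.78. Sham and PHx arrays were far apart in both genotypes. Mlxipl fell by 1.65 in fl/fl (adjusted p = 2.17e-05) and by 1.50 in ΔHep (adjusted p = 4.98e-05), or 3.13-fold and 2.83-fold, the largest fall among the 29 genes in each genotype. The difference between these changes was 0.14, with a 95% interval from -0.45 to 0.74. Nr1h3, which encodes the oxysterol receptor LXRα, fell by 0.46 in fl/fl (adjusted p = 0.0345) and by 0.71 in ΔHep (adjusted p = 0.00320). The fl/fl call on Nr1h3 was lost without sham array 1, 3 or 4 or PHx array 2 or 3 (adjusted p of 0.0630 to 0.0924). Thrsp, a small protein that follows lipogenic stimuli and binds the carboxylase machinery, read 6.59, 7.19, 6.21 and 6.72 after sham and 5.04, 7.02, 8.44 and 5.38 after PHx in fl/fl. The ΔHep arrays held 7.21, 6.04, 6.60 and 7.42, then 6.23, 6.43, 7.40 and 8.96. The PHx arrays lay both above and below sham, and Thrsp was not called in either genotype.

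Counts of calls depended on how the arrays were put on 1 scale. With cyclic loess, 6 of the genes fell in fl/fl and 4 were called higher (40% of calls, against 7.69% on the deposited values). Over all genes that share moved from 36.5% to 56.7%. The calls lost in fl/fl were Acly, Acaca, Elovl6, Fads1, Gpd1 and Nr1h3, and those gained were Elovl5, Agpat3 and Dgat1, all higher. In ΔHep cyclic loess gave 14 lower and 1 higher (Lpin2), without Acly, Acaca, Fasn, Elovl2, Elovl5 and Agpat3 and with Pnpla5 gained as lower (-0.15). With quantile normalization the counts were 9 lower and 4 higher in fl/fl (30.8% of calls) and 15 lower and 1 higher (again Lpin2) in ΔHep. In fl/fl the falls of Acaca, Elovl6, Fads1, Gpd1 and Nr1h3 were lost there. The falls gained were Mogat1 and Pnpla5, both near the array medians, and the higher calls gained were again Elovl5, Agpat3 and Dgat1. In ΔHep the falls of Acaca, Fasn, Elovl2, Elovl5 and Agpat3 were lost and that of Pnpla5 was gained. With array medians subtracted they were 13 lower and 1 higher in fl/fl and 22 lower and 0 higher in ΔHep, where the share of higher calls over all genes went from 45.8% to 16.5% as the median of all genes went from 0.01 to -0.12. Without the 2 arrays of lowest weight, 9 fell and 1 rose in fl/fl. Under every alternative in which they were tested, apart from the block described next, Acss2, Aacs, Slc25a1, Agpat2, Dgat2, Mlxipl and Lpin2 kept their call in fl/fl. In ΔHep 13 genes did so, Acss2, Aacs, Slc25a1, Acacb, Elovl6, Fads1, Fads2, Gpam, Agpat2, Dgat2, Gpd1, Mlxipl and Nr1h3. The sample titles also carry numbers in 4 runs of consecutive values, each holding arrays of more than 1 group, and the labels do not say what they stand for. PHx and sham arrays meet in 1 of these runs only, through PHx fl/fl array 2, and no PHx ΔHep array shares a run with a sham array. A fit with the run as a fixed term therefore ties PHx to sham through that array alone, in both genotypes. With the run as a fixed term in limma, 8 of the 29 genes were called lower in fl/fl and 9 in ΔHep. Those were Acss2, Aacs, Slc25a1, Fads1, Agpat2, Dgat2, Gpd1 and Mlxipl in both, and Nr1h3 in ΔHep. The call on Lpin2 in fl/fl was lost there (1.09, adjusted p = 0.0838), and Dgat1 was called higher (0.39, adjusted p = 0.0356). With the run as a random block every call of the 29 genes held. The correlation within a run was -0.0071, so this fit was nearly the same as the one without a block and is no separate check.

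The remaining pathway genes were read from a list of 52 regulators, partners and isoenzymes, of which 46 were measured. After PHx 14 fell and 3 rose in fl/fl, and 19 fell and 4 rose in ΔHep. Beside these counts and those of the cell markers stand all genes, of which 20.8% fell and 11.9% rose in fl/fl and 17.5% and 14.8% in ΔHep, and the genes with a mean of at least 5, with 37% and 6.67% in fl/fl and 40.3% and 5.34% in ΔHep. Elovl3, an elongase of saturated and monounsaturated chains, fell by 2.28 in fl/fl and fell by 2.52 in ΔHep (adjusted p = 5.67e-04 and 2.29e-04). Insig1, which holds SREBP in the endoplasmic reticulum and is itself an SREBP target, fell by 1.48 and fell by 1.40 (adjusted p = 5.08e-05 and 7.77e-05). Insig2, its relative that does the same under different control, rose by 1.26 and by 1.39 (adjusted p = 0.0290 and 0.0181). The part of other liver cells in these changes was not tested: of 8 Kupffer cell markers 3 fell in fl/fl and 6 in ΔHep, of 6 endothelial markers 3 and 4 fell and 1 rose in each, and of 6 stellate cell markers 3 fell in each. Of the 8 hepatocyte markers 2 fell in fl/fl and 1 in ΔHep. Of 5 adipocyte markers measured, Fabp4 alone rose in both genotypes, and the list averaged 2.02 to 2.48 on all arrays.

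The comparison of ΔHep with fl/fl asks what the loss of hepatocyte PPARα does to these genes. After sham, 0 of the 29 were called by limma, and 0.0133% of all genes were. An unadjusted p below 0.05 was met by 4 of the 29, by 9.26% of all genes and by 7.39% of the genes with a mean of at least 5. After PHx 1 of the 29, Agpat3, was called, as were 0.143% of all genes. There 8 of the 29, 7.47% of all genes and 9.51% of the genes with a mean of at least 5 had an unadjusted p below 0.05. Over both operations together Agpat3 was again the only one, where 0.219% of all genes were called. The difference between the genotypes' PHx changes was called for 0 of the 29 and for 0 of all genes, with 7 of the 29, 11.3% of all genes and 7.51% of the genes with a mean of at least 5 at an unadjusted p below 0.05. These comparisons share their arrays with those of PHx against sham.

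**Figure D3:**
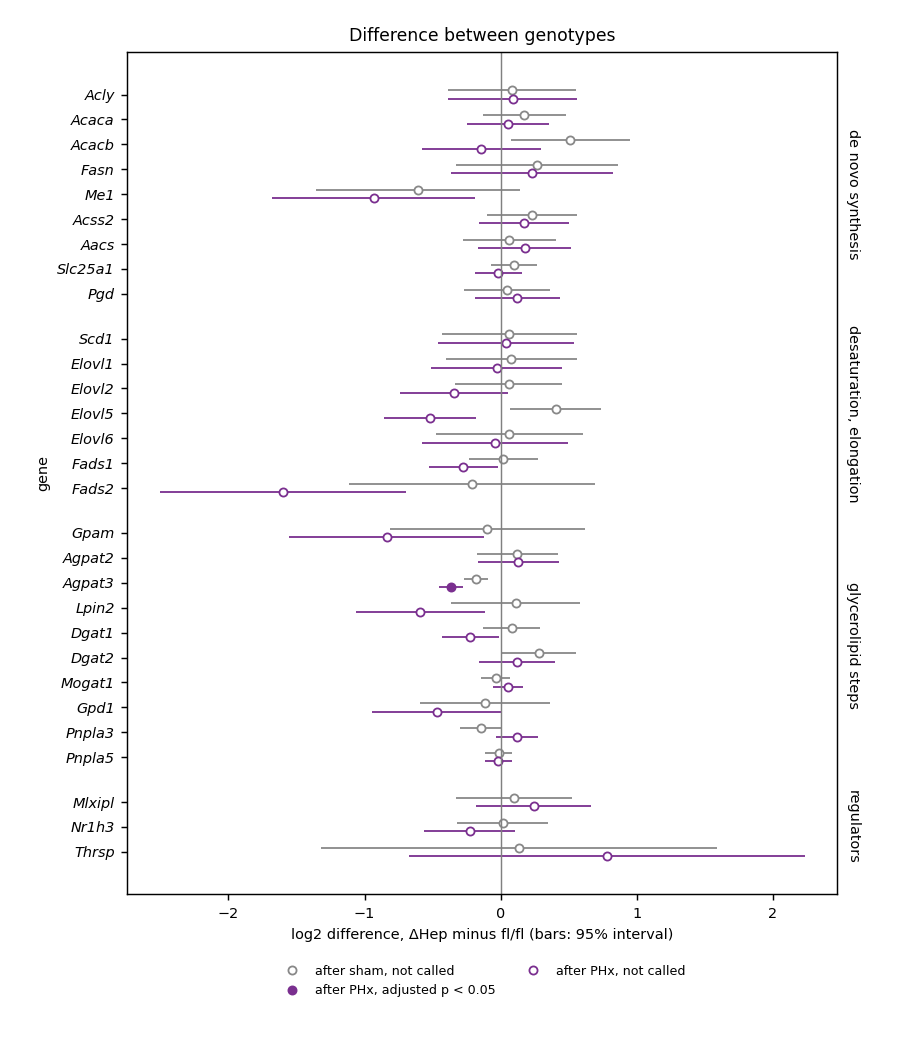
Log2 difference, ΔHep minus fl/fl, of each of the 29 genes after sham (grey) and after PHx (purple), with the 95% interval from limma, ordered by role. Agpat3 after PHx, at -0.36, is the only filled point (adjusted p below 0.05), and Fads2 after PHx lies farthest from 0 at -1.60 with a wide interval.

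Agpat3, an acyltransferase that adds the second chain to lysophosphatidate and is also known for placing polyunsaturated chains on lysophospholipids, read 6.87, 6.95, 6.85 and 6.92 in sham fl/fl and 6.75, 6.73, 6.71 and 6.67 in sham ΔHep. After PHx it read 6.91, 6.93, 6.94 and 6.93 in fl/fl and 6.50, 6.51, 6.59 and 6.64 in ΔHep. The ΔHep arrays lay below the fl/fl arrays after both operations, by a small amount and with little spread. Of all genes 4.43% lay so after sham and 1.31% after PHx. The difference after sham was -0.18 ± 0.04 (limma, adjusted p = 0.337, not called). The difference after PHx was -0.36 ± 0.04, 1.29-fold lower (adjusted p = 0.00184), and over both operations it was -0.27 ± 0.03 (adjusted p = 5.42e-04). With only those 8 arrays fitted, adjusted p after PHx was 0.250. The PHx change of Agpat3 itself, -0.15 in ΔHep (adjusted p = 0.0117), became 0.054 with cyclic loess and 0.071 with quantile normalization.

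Me1 and Elovl5 were the other genes whose ΔHep arrays all lay below the fl/fl arrays after PHx, as 1.31% of all genes did. Me1, the malic enzyme that supplies NADPH, read 7.29, 6.93, 6.93 and 7.21 in PHx fl/fl and 5.42, 5.93, 6.60 and 6.69 in PHx ΔHep. One sham ΔHep array was low as well, with 5.09, 6.77, 6.59 and 7.12 against 6.88, 7.14, 6.99 and 6.99 in sham fl/fl. The Me1 difference after PHx was -0.93 ± 0.35 (adjusted p = 0.546). Elovl5 differed by -0.52 ± 0.16 after PHx (adjusted p = 0.375) and by 0.40 ± 0.16 after sham (adjusted p = 0.475). Fads2 differed by -1.60 ± 0.42 after PHx (adjusted p = 0.271). Without PHx fl/fl array 3, which had the lowest Fads2 value of its group, that difference was -2.10 (adjusted p = 0.00934), and over both operations it was -1.16 (adjusted p = 0.0308). Gpam, Lpin2, Fads1 and Dgat1 also had an unadjusted p below 0.05 after PHx, all lower in ΔHep, at -0.84 ± 0.34, -0.59 ± 0.22, -0.27 ± 0.12 and -0.22 ± 0.10. Of the 46 further pathway genes, Hacd3, a dehydratase of the elongation cycle, was called after PHx (-1.17 ± 0.17, adjusted p = 0.00993) and over both operations (-0.85 ± 0.12, adjusted p = 0.00479). It was named after its values were seen, as the only call of that list.

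The genes spread more within the PHx groups than within the sham groups. For the 23 genes with a mean of at least 5, the median SD over 4 arrays was 0.19 in sham fl/fl, 0.17 in sham ΔHep, 0.34 in PHx fl/fl and 0.35 in PHx ΔHep. For all genes with such a mean it was 0.11, 0.10, 0.16 and 0.20. On PHx fl/fl array 3 and PHx ΔHep array 4, Thrsp (8.44 and 8.96), Scd1 (10.57 and 10.77), Fasn (7.42 and 7.47), Acly (6.47 and 6.99), Agpat3 (6.94 and 6.64) and Pnpla3 (2.78 and 2.98) were the highest of their group. On the same arrays Acacb (4.29 and 4.43), Aacs (4.36 and 4.27), Gpam (5.58 and 4.47), Elovl1 (5.58 and 5.28), Elovl6 (5.39 and 5.72), Dgat2 (7.52 and 7.75), Gpd1 (6.86 and 6.63) and Nr1h3 (5.16 and 5.21) were the lowest. Acaca, Mogat1 and Pnpla5 went opposite ways, lowest on the fl/fl array and highest on the ΔHep array. Further genes, among them Slc25a1, Pgd, Lpin2 and Mlxipl, were extreme on a single array of the pair. Of the 29 genes, 10 were highest and 13 lowest on the fl/fl array, and 12 and 9 on the ΔHep array. The counts were 12 and 7 on PHx ΔHep array 1 and 9 and 6 on PHx fl/fl array 1. Such counts were not made over all genes. Ppara was lowest in its group on PHx fl/fl array 3 and PHx ΔHep array 4, at 5.68 and 4.70. The part of array quality or of Ppara in the spread was not tested.

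**Figure D4:**
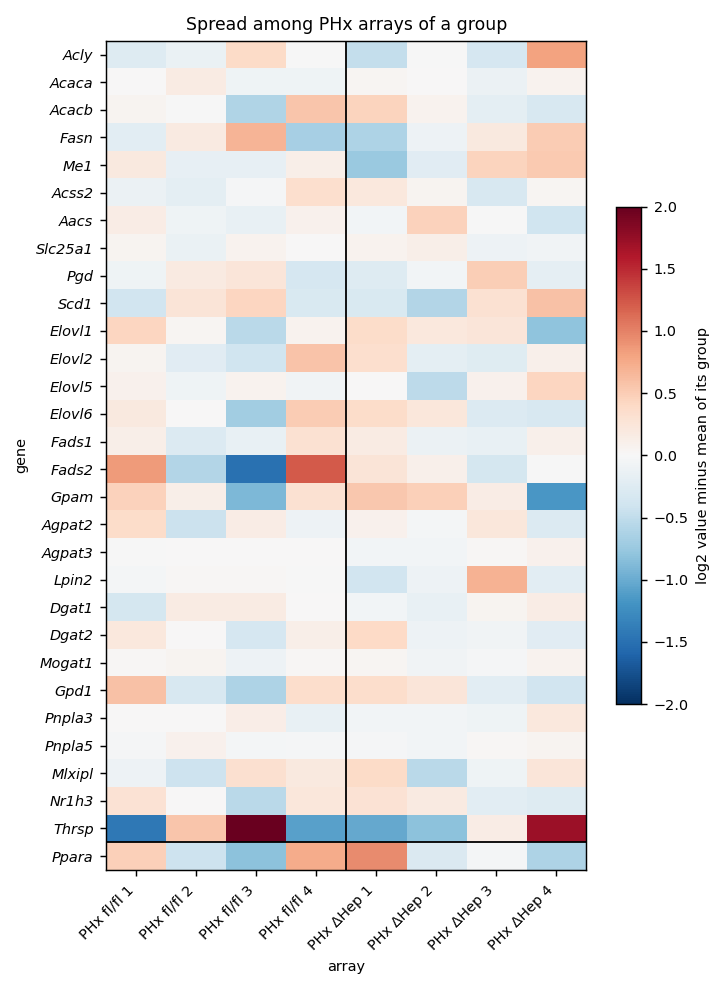
Log2 value minus the mean of its group on each of the 8 PHx arrays, for the 29 genes and Ppara; red is above the group mean and blue below. Fl/fl array 3 and ΔHep array 4 are red for Thrsp, Fasn, Scd1 and Acly and blue for Gpam, Elovl1 and Ppara.

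In fl/fl after PHx, arrays 1 and 4 had Fads2 at 8.82 and 9.19, Thrsp at 5.04 and 5.38, and Ppara at 6.97 and 7.24. Arrays 2 and 3 had Fads2 at 7.38 and 6.47, Thrsp at 7.02 and 8.44, and Ppara at 6.08 and 5.68. These genes were picked after their values were seen, and others, such as Agpat2 and Mlxipl, did not divide the arrays into these pairs. Arrays 3 and 4 stand in the same run of title numbers and arrays 1 and 2 in different runs. No test was made between the pairs, and the part of the runs was not tested.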

How the data were processed

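The deposited values are log2, a single value per probe set and array. Per the submitters' processing notes the authors used RMA, a method that subtracts background, equalises arrays and combines the probes of a probe set. Neither the RMA software and version nor a genome build is given in the sources used here. Of 72688 probe sets, 30604 carried 1 gene symbol in the platform annotation, 2146 several and 39938 were not listed. Entrez identifiers were looked up in RefSeq to bring 827 old symbols up to date, which left 30142 genes, 355 with several probe sets.

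Groups came from the labels, and array numbers follow sample order and pair nothing. limma 3.58.1 in R 4.3.3 (statmod 1.5.0, data.table version 1.17.8) fitted 1 mean per group to the log2 values of all 16 arrays with 12 residual degrees of freedom and eBayes defaults, and 6 contrasts were taken with Benjamini-Hochberg adjustment over the 30142 genes. The scripts were tested on simulated data. For arrays, their number limits the precision, and low values lie near background.

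The genes, lists and motifs were chosen with earlier results of these data known, so their counts are descriptions set beside those of all genes. All 29 measured genes are described; of the further pathway genes, those passing are counted and the 3 with the largest change named by rule, and the others named were picked after their values were seen. Alternatives were 3 scalings, a mean of at least 5, protein-coding genes alone, the mean of a gene's probe sets, eBayes with trend and robust options, array weights, only the arrays compared, and each array left out; leaving out both arrays of lowest weight, and the run of consecutive title numbers as a fixed or random block, were chosen after seeing the data. Promoter words were searched on both strands of RefSeq's GRCm38.p6 windows.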

Additional observations from a re-analysis of the deposited data

Results flagged for a closer look

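In PHx ΔHep, Elovl1 read 5.28 on array 4, while the other arrays of the group read 6.30 to 6.46. In the same group Pnpla3 read 2.98 on array 4, while the other arrays read 2.67 to 2.71. These were the only values set apart by Dixon's criterion (gap over range above 0.829) among 116 groups of 4 arrays, and chance alone sets apart about 1 in 20 groups. Both stand on the array with the lowest array weight of its group.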

How the results depend on the processing

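Of 34 called differences of single genes, the alternatives other than leaving out 1 array gave 405 values, of which 358 kept direction and call, 45 lost the call and 2 turned. Leaving out 1 array gave 544, of which 512 kept both and 32 lost the call. The turned values were those of Agpat3 after PHx in ΔHep, at 0.054 with cyclic loess and 0.071 with quantile normalization. Mogat1 there, uncalled at 0.01, was called at -0.12 once array medians were subtracted, a scaling that moved the median of all genes from 0.01 to -0.12. The cause was not tested.

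The members called after PHx between genotypes went from 1 to 0 with only the compared arrays and to 2 without both arrays of lowest weight, as did the pooled count (1 to 2). Over all genes, 9868 were called after PHx in fl/fl and 9734 in ΔHep. With a mean of at least 5 these were 2477 and 2641 of fewer genes tested, and with protein-coding genes alone 6572 in fl/fl. Between genotypes after sham 4 genes were called, 2 with array medians subtracted, 1 with a mean of at least 5, 24 with array weights, 38 with only the compared arrays and 7 without both low-weight arrays. After PHx 43 were called, 0 with only the compared arrays and 135 without both low-weight arrays. Pooled, 66 were called, 100 with array weights and 155 without both low-weight arrays. With the run of title numbers as a fixed block, which leaves 9 residual degrees of freedom, the members called were 9 in each genotype after PHx, and all genes called were 3897 in fl/fl, 2963 in ΔHep and 26 between genotypes after PHx. In that fit PHx was tied to sham through PHx fl/fl array 2 alone.

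Leaving out 1 array gave 9 to 15 members in fl/fl, 17 to 20 in ΔHep, 0 after sham, 1 to 2 after PHx, 1 to 2 pooled and 0 for the difference of changes. Over all genes it gave 7711 to 10176, 7720 to 10099, 1 to 6 (1 without sham fl/fl array 3 or sham ΔHep array 1 or 2), 14 to 127 (14 without PHx ΔHep array 2, 127 without PHx fl/fl array 3), 35 to 120 (35 without sham ΔHep array 1, 120 without PHx fl/fl array 3) and 0 to 2. No paired analysis was possible because each title number belongs to 1 array and the labels name no animal shared across groups.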

Other observations

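Further pathway genes fell after PHx in both genotypes. Idh1, the cytosolic isocitrate dehydrogenase that yields NADPH, fell by 0.95 in fl/fl and by 0.91 in ΔHep, and Taldo1 and Pgls of the pentose phosphate route by 0.42 and 0.36 in fl/fl and by 0.49 and 0.34 in ΔHep. Mid1ip1, the Thrsp relative that aids acetyl-CoA carboxylase, fell by 0.83 and by 1.00. Mlycd, which destroys malonyl-CoA, fell by 0.61 and by 0.97. Gpat3, an acyltransferase of the endoplasmic reticulum, rose by 0.89 and by 0.64, where the mitochondrial Gpam fell in ΔHep. These genes were picked from the list after their values were seen, and each value passed adjusted p below 0.05 in limma's fit.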
